A study of Mus musculus with 75 samples.

Results

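At E9.5, when mouse primordial germ cells (PGCs) leave the hindgut for the future gonads, 16 of 26218 genes in the table had an RNA level that no later germ cell stage approached. They were chosen by their embryo values: the E9.5 mean of log2(RPM + 1) had to exceed the highest of the other 10 embryo group means by at least 2, the E9.5 mean had to be at least 10 RPM (reads scaled to a fixed library total, as deposited), and predicted gene names were left out, which removed 1 gene. Of the 7194 named genes with at least 10 RPM at E9.5, the rule took 0.222 %. Because these values made the choice, the embryo levels below are a description without a test. The 16 are the embryonic globins Hbb-bh1, Hbb-y and Hba-x, the transcription factors Meox1, Hoxb9 and Prrx1, the secreted or matrix proteins Fgfbp3, Ptn and Sparcl1, the Wnt carrier Wls, the enzyme Arg1, the cytoskeletal genes Krt8, Tpm4 and Marcks, and Fam181b and Fndc3c1.

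The study profiled messenger RNA by SC3-seq, a 3′-end RNA-seq method, from 1 ng of RNA in 75 mouse libraries of 37 groups. The embryo germ cells came from ICR:C57BL/6=1:1 mice: Dppa3-EGFPTg/0 cells sorted for GFP from E9.5 to E13.5, and Ddx4-RFPTg/0 cells sorted for RFP at E14.5 and E15.5, with 2 libraries per group, the sexes unlabelled to E11.5 and separate from E12.5. PGC-like cells (PGCLCs) were induced from embryonic stem cells with BMP4, LIF, SCF and EGF for 4 days, sorted by their reporters and then cultured on m220 feeder cells. The first PGCLC line was Prdm1-mVenusTg/0; Dppa3-ECFPTg/0 on a 129S1:C57BL/6=1:1 background, sampled at day 4 of induction (d4, culture day 0), at culture day 3 (c3) and at days 5, 7 and 9 (c5, c7, c9) under the conditions labelled RA, RB and CT, with 2 libraries each, plus 1 library labelled 0R3B at c9. Factors for the female fate were given from c3 on, and the labels spell out neither these abbreviations nor which factors each condition received. A second experiment on a DBA/2:C57BL/6=1:1 background with the same reporters held Stra8-/- PGCLCs (4 libraries per day, 2 of line SK1 and 1 each of SK2 and SK3) and wild-type PGCLCs (2 per day), at c3 in CT and at c5, c7 and c9 in RB. The third line was C57BL/6 with the same reporters and Gtrosa26tm1Sor/0 and gave 6 single libraries. They were labelled d4c0 (d4), c0CT and c0RB (culture day 2), c7 (day 7), and c7CT and c7RB (day 9). These labels name c0 and c7 rather than c3, and they do not spell out when the factors began in this line. No label says that the 2 libraries of a group came from separate litters or cultures, so p-values measure the spread between these libraries, which may be technical.

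PGCs arise in the posterior epiblast, pass through the hindgut wall and the dorsal mesentery and settle in the genital ridge, so cells of gut, mesoderm and blood lie next to them on the way. Embryonic globins are made by primitive red blood cells, the first blood of the embryo, and are replaced by adult globins as definitive red cells take over. Meox1 and Prrx1 pattern paraxial and lateral mesoderm, Hoxb9 marks posterior position along the body axis, and Krt8 encodes a keratin of simple epithelia. PGCLCs are used as a model of PGCs before they reach the gonad.

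The globin members are shown first by sequence, since they carried most of the signal of the whole set. RefSeq (GRCm38.p6, the same assembly as mm10) places all 16 members, on 11 chromosomes. Hbb-bh1 lies at chr7:103841638-103843162 and Hbb-y at chr7:103851754-103853207, 8591 bases apart in the beta-globin cluster, and Hba-x lies at chr11:32276600-32278116 in the alpha-globin cluster. The 250 bases upstream of the start are given for the pair of globin members with a RefSeq promoter entry, Hbb-y on the minus strand at chr7:103853208-103853457 and Hba-x on the plus strand at chr11:32276350-32276599. Capitals mark the CACCC box, the GATAA string, the CCAAT box and the ATAAA string, searched on both strands. In the Hbb-y window a GATAA match on the minus strand and an ATAAA match adjoin in a single run.
Hbb-y: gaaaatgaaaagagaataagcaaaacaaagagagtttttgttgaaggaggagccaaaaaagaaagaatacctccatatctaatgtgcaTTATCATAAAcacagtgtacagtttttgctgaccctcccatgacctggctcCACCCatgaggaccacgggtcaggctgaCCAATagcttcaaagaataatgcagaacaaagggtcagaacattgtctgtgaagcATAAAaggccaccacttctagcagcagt
Hba-x: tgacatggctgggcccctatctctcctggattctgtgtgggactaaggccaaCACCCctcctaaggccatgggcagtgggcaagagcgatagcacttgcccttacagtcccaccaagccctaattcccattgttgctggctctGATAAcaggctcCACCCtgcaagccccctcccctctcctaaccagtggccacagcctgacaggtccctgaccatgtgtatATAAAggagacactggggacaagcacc
CACCC stood at -111 in Hbb-y and at -198 and -95 in Hba-x, counted from the start. GATAA stood at -162 on the minus strand in Hbb-y and at -107 in Hba-x, ATAAA at -157 and -28 in Hbb-y and at -27 in Hba-x, and CCAAT at -83 in Hbb-y. Among all 32851 promoter windows of the same length, 52.0 % held the CACCC box, 22.6 % the GATAA string, 33.8 % the CCAAT box and 37.3 % the ATAAA string, so each string is common and a match marks letters only.

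The embryonic globins had the highest RPM of the members at E9.5 and were nearly gone at E11.5. Hbb-y, an embryonic beta-like globin, was at 1810 and 1723 RPM in the E9.5 libraries, 80.3 and 87.5 RPM at E10.5 and 6.30 and 1.28 RPM at E11.5. In the 16 libraries from E12.5 to E15.5 it had a median of 3.03 RPM and a highest value of 10.4 RPM. Hba-x, the embryonic alpha-like zeta globin, was at 875 and 795 RPM at E9.5, 55.3 and 42.5 RPM at E10.5 and 1.84 and 0.64 RPM at E11.5. Hbb-bh1, another embryonic beta-like globin, had 507 and 568 RPM at E9.5, 14.3 and 17.3 RPM at E10.5 and 0.79 and 0.64 RPM at E11.5. No later library came near an E9.5 library for any of them. The E10.5 mean was 2.94 to 5.86 % of the E9.5 mean for these 3 genes and the E11.5 mean 0.133 to 0.215 %. The summed level of the 3 was 3087 to 3192 RPM at E9.5, 147 to 150 RPM at E10.5 and 2.57 to 8.92 RPM at E11.5.

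Adult-type alpha globin followed the same early course but returned later. Hba-a1, which encodes adult alpha globin and has a near-identical copy in Hba-a2 with which it may share reads, was at 445 and 402 RPM at E9.5, 18.4 and 23.7 RPM at E10.5 and 2.49 and 0.48 RPM at E11.5. It was at 179 and 97.4 RPM in E15.5 male libraries and 55.4 and 209 RPM in E15.5 female libraries, where Hbb-bh1, Hbb-y and Hba-x stayed at or below 2.22 RPM each. For that reason the rule did not take Hba-a1, whose difference from its highest later group mean was 1.67. The 30 genes of the red cell list that are no members summed to 857 to 943 RPM at E9.5, 128 to 150 RPM at E10.5 and 115.5 to 136 RPM at E11.5. They include Hba-a1 and Hba-a2. Of the 33 red cell genes in the table, members included, 11 reached a mean of 10 RPM at E9.5, 10 at E10.5 and 5 at E11.5. Of 22 white cell (myeloid) genes 0 reached 10 RPM at E9.5, and of 13 platelet genes 1 did, Itgb3. Itgb3 was at 40.3 and 34.8 RPM at E9.5 and 33.9 and 35.6 RPM at E11.5. In the first PGCLC line Itgb3 was also at 29.0 and 33.9 RPM at c3. Pf4, Clec1b and Vwf, of the same list, were at 0 in those c3 libraries. The part of platelet RNA in the Itgb3 values was not tested. The part of blood RNA in the globin values was not tested.

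Transcription factors of mesoderm and axial position formed the next group. Meox1 was at 36.3 and 34.3 RPM at E9.5, 1.04 and 0.79 RPM at E10.5 and 0 and 0.96 RPM at E11.5. Hoxb9 was at 21.6 and 19.1 RPM at E9.5, 0.52 and 0.26 RPM at E10.5 and 0 in both E11.5 libraries, and its highest later library had 2.60 RPM (E13.5 female). Prrx1 had 9.91 and 14.502 RPM at E9.5, 2.08 and 0.52 RPM at E10.5 and 0 at E11.5. The values at 0 lie under the level that 3 reads give in these embryo libraries, 0.676 to 1.12 RPM. All 3 genes were thus near the detection limit within 2 stages after E9.5.

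Secreted and signalling members were highest at E9.5 too. Ptn, a heparin-binding growth factor, was at 25.2 and 28.8 RPM at E9.5, 4.42 and 6.03 RPM at E10.5 and 1.05 and 0.96 RPM at E11.5. Wls, which carries Wnt proteins to the cell surface, was at 21.6 and 22.5 RPM at E9.5, 2.86 and 2.36 RPM at E10.5 and 2.10 and 2.89 RPM at E11.5. Sparcl1, a matrix-associated glycoprotein, was at 18.7 and 21.99 RPM at E9.5 and 0.78 and 0.79 RPM at E10.5, and was at 2.65 and 4.11 RPM in E14.5 female libraries. Fgfbp3, which binds fibroblast growth factors, was at 10.4 and 13.1 RPM at E9.5, 0 and 0.26 RPM at E10.5 and 0 at E11.5. Arg1, an arginase, was at 19.8 and 33.8 RPM at E9.5, 1.30 and 4.45 RPM at E10.5 and 0 at E11.5. Fam181b was at 11.7 and 10.9 RPM at E9.5 and under 1 RPM at E10.5 and E11.5. Arg1 had the widest spread between the E9.5 libraries in this group, and in each case both E9.5 libraries lay above all 20 later ones.

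The cytoskeletal genes and Fndc3c1 make up the last group. Marcks, an actin-binding substrate of protein kinase C, was at 126 and 136 RPM at E9.5, 27.3 in both libraries at E10.5 and 17.8 and 17.6 RPM at E11.5, and from E12.5 to E15.5 its 16 libraries ran from 5.01 RPM to 31.7 RPM with a median of 16.4 RPM. Tpm4, a tropomyosin, was at 98.8 and 104 RPM at E9.5, 29.2 and 18.3 RPM at E10.5 and 8.14 and 4.49 RPM at E11.5. Fndc3c1, an X-linked gene for a fibronectin type III domain protein, was at 59.8 and 57.3 RPM at E9.5, 12.1 and 14.7 RPM at E10.5 and 4.72 and 3.21 RPM at E11.5, and reached 13.3 and 6.53 RPM in E15.5 male libraries. Krt8 was at 27.3 and 28.0 RPM at E9.5, 2.34 and 5.24 RPM at E10.5 and 2.23 and 4.81 RPM at E11.5. Marcks was thus the only one of the 16 with an E11.5 mean above 10 RPM, and Tpm4 the only other above 5 RPM.

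**Figure D1:**
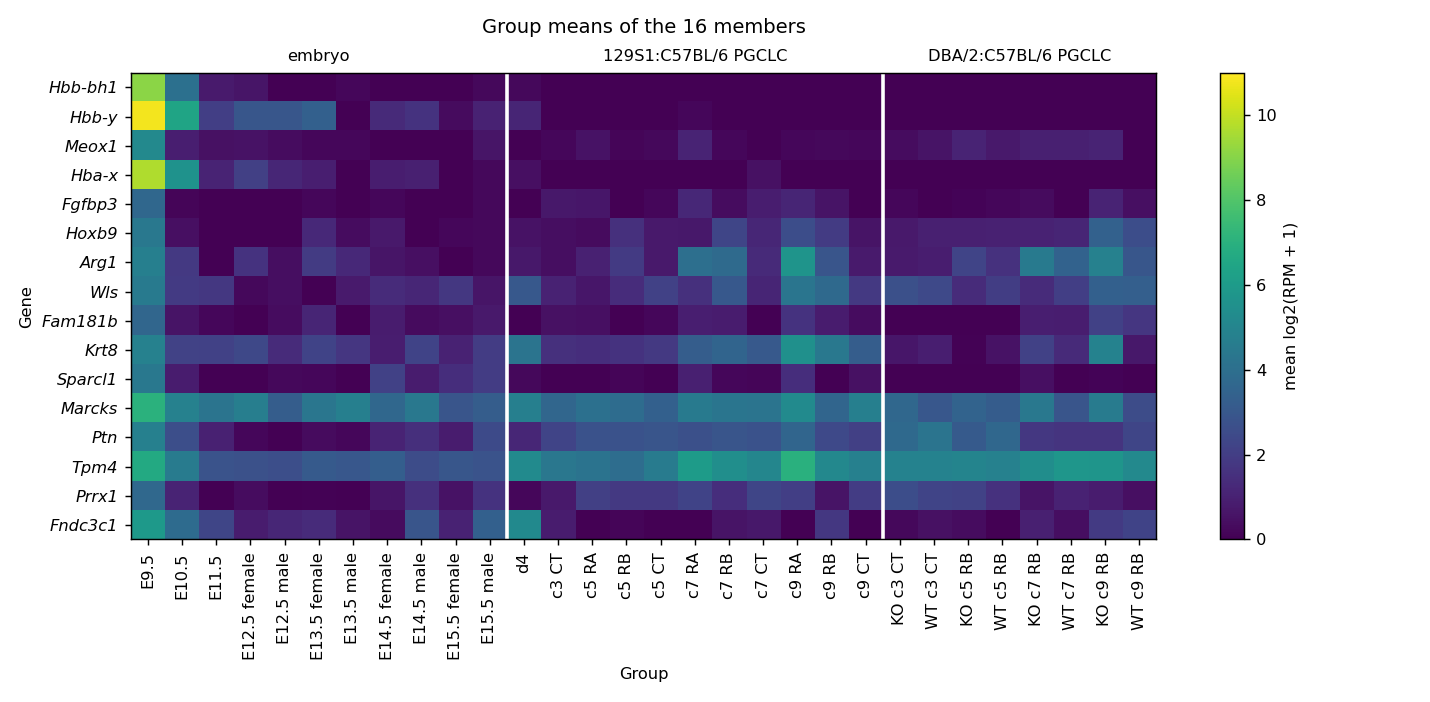
Group means of log2(RPM + 1) for the 16 members (rows, by falling difference between E9.5 and the highest later embryo group) in the embryo groups, the 129S1:C57BL/6 line and the DBA/2:C57BL/6 experiment (columns), with colour as the mean level. The E9.5 column is the brightest of the embryo block in every row, the globin rows are dark in all PGCLC columns, and Krt8, Marcks, Tpm4 and Fndc3c1 are bright again at d4.

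For 9 members the highest later embryo group was E10.5, and the mean was higher at E10.5 than at E11.5 for all 16. The libraries of E10.5 and E11.5 overlapped for some of them, such as Wls and Krt8. The others had their highest later mean at E13.5 female (Hoxb9, Arg1 and Fam181b), E15.5 male (Fgfbp3 and Prrx1), E12.5 female (Krt8) and E14.5 female (Sparcl1). Just inside the threshold lay Fndc3c1 with a difference of 2.06, Prrx1 with 2.07 and Tpm4 with 2.08. Just outside lay Vcan with 1.99, Igfbp4 with 1.94 and Nnat with 1.86. The 13 members other than the globins summed to 487 to 524 RPM at E9.5, 81.8 to 84.2 RPM at E10.5 and 35.3 to 36.1 RPM at E11.5.

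Marker genes of neighbouring cells differed in how they moved with the members. Of 27 mesenchyme genes in the table, 9 reached a mean of 10 RPM at E9.5, 1 at E10.5 and 0 at E11.5, and the 24 that are no members summed to 225 to 234 RPM at E9.5, 70.9 to 80.2 RPM at E10.5 and 14.0 to 16.7 RPM at E11.5. With its members included, the list was again at 132 to 232 RPM in E14.5 male and 184 to 194 RPM in E15.5 male libraries. Among them Col3a1, a fibrillar collagen, was at 69.9 and 66.5 RPM at E9.5, 23.6 and 31.2 RPM at E10.5 and 3.41 and 3.85 RPM at E11.5. Twist1, a mesenchymal transcription factor, was at 37.0 and 41.1 RPM at E9.5, 4.42 and 2.10 RPM at E10.5 and 0.79 and 0.96 RPM at E11.5. The yolk sac and liver gene Afp was at 16.2 and 20.3 RPM at E9.5 and under 1 RPM at E10.5. The yolk sac list summed to 54.3 to 57.3 RPM at E9.5, 27.3 to 30.1 RPM at E10.5 and 22.05 to 25.98 RPM at E11.5, and to 228 to 229 RPM in E15.5 male libraries. Gut endoderm genes other than Krt8 summed to 258 to 293 RPM at E9.5, 232 to 249 RPM at E10.5 and 268 to 292 RPM at E11.5, carried by Epcam, which PGCs also express. Endothelial genes summed to 172 to 183 RPM at E9.5, 235 to 242 RPM at E10.5 and 182 to 200 RPM at E11.5. Genes of early PGCs were present at all these stages, with 19 of 20 at or above 10 RPM at each of the 3 stages, and Dppa3, a germ cell gene and the basis of the sort, at 1926 RPM or more in each library. In bulk samples, fewer cells of a type and less RNA per cell cannot be told apart, and the part of mesenchyme RNA in Meox1, Ptn and Prrx1, which belong to that list, was not tested.

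**Figure D2:**
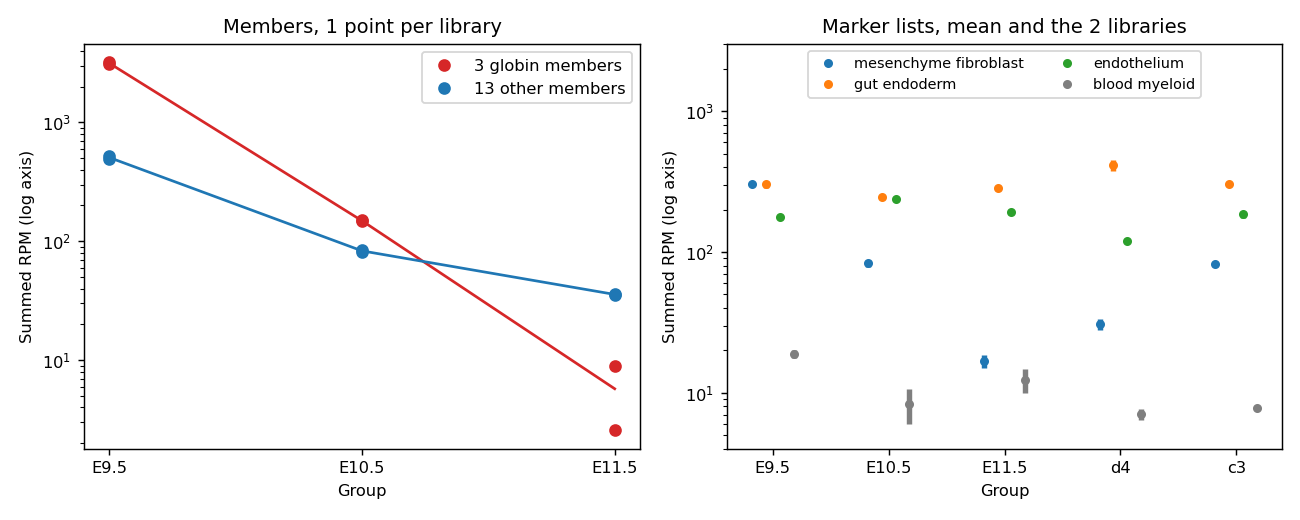
Left, summed RPM (log axis) of the 3 globin members and the 13 other members at the first 3 embryo stages, with 1 point per library and a line through the means. Right, summed RPM (log axis) of 4 marker lists, members included, at the same stages and in d4 and c3 PGCLCs of the 129S1:C57BL/6 line, as the mean (point) and the 2 libraries (bar): the mesenchyme list is at 296 to 312 RPM at E9.5 and 15.0 to 18.6 RPM at E11.5, while the gut endoderm and endothelium lists stay above 100 RPM. The latter lists include Epcam and Pecam1, which were also present in c3 PGCLCs.

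Library depth, estimated from the RPM of a single read, was 1.08 to 15.6 M reads, with a median of 3.12 M, which puts 3 reads at 0.192 to 2.78 RPM. This floor covers counting error only. The E9.5 libraries carried less spike-in RNA (475 and 1114 RPM) than the other embryo libraries. In the DBA/2:C57BL/6 experiment spike-in RNA ran from 3.23 to 48450 RPM. Wild-type replicate 1 had 37115 RPM at c3 and 48450 RPM at c9, against 11.8 and 36.0 RPM in replicate 2. The SK2 library had 26445 RPM at c3 and 13.1 RPM at c9. The effect of this difference on the comparisons was not tested. Replicate libraries of a group correlated at 0.978 to 0.993 (Pearson's r across genes, which are not independent replicates). Stra8 RNA itself was at 77.9 to 483 RPM in Stra8-/- libraries at c9, against 1717 to 1813 RPM in wild-type libraries, and it is not stated in the sources used here whether the 3′ reads fall inside the deleted part.

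In d4 PGCLCs, 4 of the 16 members reached 10 RPM, beside 93.9 % of the 7194 named genes with at least 10 RPM at E9.5. These 4 were Tpm4 (40.2 and 33.9 RPM), Fndc3c1 (34.9 and 36.6 RPM), Marcks (23.2 and 29.4 RPM) and Krt8 (15.54 and 20.48 RPM). Wls was at 11.1 and 4.35 RPM. The single d4 library of the C57BL/6 line gave the same 4 genes, with Tpm4 at 44.5 RPM, Fndc3c1 at 28.4 RPM, Marcks at 21.2 RPM and Krt8 at 15.7 RPM. The other 11 members were at or under 1.81 RPM in the d4 libraries of the 129S1:C57BL/6 line, leaving Wls aside. The median d4 minus E9.5 difference was -3.64 on the log2(RPM + 1) scale over the members, beside 0.08 over the 7194 named genes. The members were chosen for high E9.5 values, which this difference subtracts, so the choice itself pushes their median down. No test was made between embryo and culture.

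The globins were close to absent from every PGCLC library. Hbb-bh1 was at 0 in 52 of 53 libraries and its highest value was 0.36 RPM, and Hbb-y and Hba-x were at 0 in 50 of 53, with highest values of 1.76 RPM and 0.98 RPM. A value of 0 allows up to 3 reads of that library. The 24 mesenchyme genes that are no members summed to 26.1 to 32.3 RPM in d4, Col3a1 was at 0.29 and 0 RPM and Twist1 at 1.47 and 2.17 RPM. The gut endoderm list, to which Krt8 belongs, summed to 377 to 446 RPM in d4, above the 285 to 321 RPM at E9.5. The part of other cell types in the d4 values of Krt8, Marcks, Tpm4 and Fndc3c1 was not tested. Meox1 stayed at or under 2.90 RPM in all 53 PGCLC libraries and Sparcl1 at or under 3.14 RPM. Fgfbp3 stayed at or under 3.27 RPM and Fam181b at or under 5.52 RPM.

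From d4 to c3 the cells change from aggregates to a feeder culture, and the test asked which members changed over those first days. In each PGCLC experiment limma was fitted on log2(RPM + 1) over all groups, for genes at 5 RPM or more in at least 2 libraries. A change was called where the p adjusted by Benjamini-Hochberg was below 0.05 and the log2 fold change was 1 or more in either direction. In the 129S1:C57BL/6 line 9 of 16 members passed this filter (Krt8, Fndc3c1, Wls, Marcks, Tpm4, Arg1, Hoxb9, Ptn and Prrx1). At c3, 4 of the 9 were lower than at d4 and 0 were higher, where 2.43 % of all 11873 tested genes were lower; the median log2 fold change was -0.87 over the 9 and 0.00 over all. Fndc3c1 fell to 0.66 and 0.92 RPM at c3, against 34.9 and 36.6 RPM at d4 (log2 fold change -4.36, SE 0.53, limma adjusted p = 5.85e-06). Krt8 fell to 1.64 and 2.21 RPM at c3, against 15.54 and 20.48 RPM at d4 (-2.69, SE 0.40, limma adjusted p = 7.97e-05). For both genes the groups were far apart, and the call held when any 1 of the 4 libraries was left out. Fndc3c1 reached 5 RPM only in the d4 libraries and in 1 c9 RB library, so it passed the filter through the group where it was high and its fall was favoured by that; with no filter its limma adjusted p was 0.000205. In the C57BL/6 line at culture day 2, Fndc3c1 was at 1.81 RPM in the CT library, against 28.4 RPM in the d4 library. Krt8 was at 2.11 RPM in this CT library, against 15.7 RPM in d4. The RB library of the same day had Fndc3c1 at 2.70 RPM and Krt8 at 2.16 RPM.

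Wls and Marcks were called lower at c3 too, on less firm ground. Wls was at 0.33 and 2.21 RPM at c3, against 11.1 and 4.35 RPM at d4 (log2 fold change -1.96, SE 0.52, limma adjusted p = 0.0182). Its call was lost without c3 replicate 1 (-1.33, limma adjusted p = 0.28) and without d4 replicate 1 (-1.37, limma adjusted p = 0.252), in a range of 0.0161 to 0.28 over the 4 left-out libraries. Marcks was at 9.54 and 13.6 RPM at c3, against 23.2 and 29.4 RPM at d4 (-1.13, SE 0.32, limma adjusted p = 0.0273). Its call was lost without c3 replicate 1 (-0.89), without d4 replicate 1 (-1.29) and without d4 replicate 2 (-0.96), with limma adjusted p between 0.0445 and 0.242 over the 4 left-out libraries. Tpm4 was at 17.3 and 22.7 RPM at c3, against 40.2 and 33.9 RPM at d4, and missed the size limit (-0.87, SE 0.26, limma adjusted p = 0.0415). Arg1, Hoxb9, Ptn and Prrx1 were not called, with 3.95 RPM at c3 as the highest value of any of them in these 4 libraries.

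Genes of several marker lists differed between d4 and c3 too. Of 16 tested posterior mesoderm genes 1 was higher and 6 were lower at c3, among them Wnt5a, a Wnt ligand, at 2.63 and 2.21 RPM at c3 against 13.8 and 14.497 RPM at d4, and Nkx1-2, a tail bud factor, at 0.66 and 0.74 RPM at c3 against 11.4 and 14.497 RPM at d4. Of 14 tested gut endoderm genes 0 were higher and 3 were lower, 1 of them Krt8, and Krt18, the keratin that pairs with Krt8, was at 7.89 and 9.21 RPM at c3 against 19.7 and 17.0 RPM at d4. Of 14 tested mesenchyme genes 3 were higher and 2 were lower. Col3a1 was higher, at 25.7 and 38.7 RPM at c3 against 0.29 and 0 RPM at d4, and it is a gene that fibroblast-like cells also express; the part of feeder cell RNA was not tested.

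**Figure D3:**
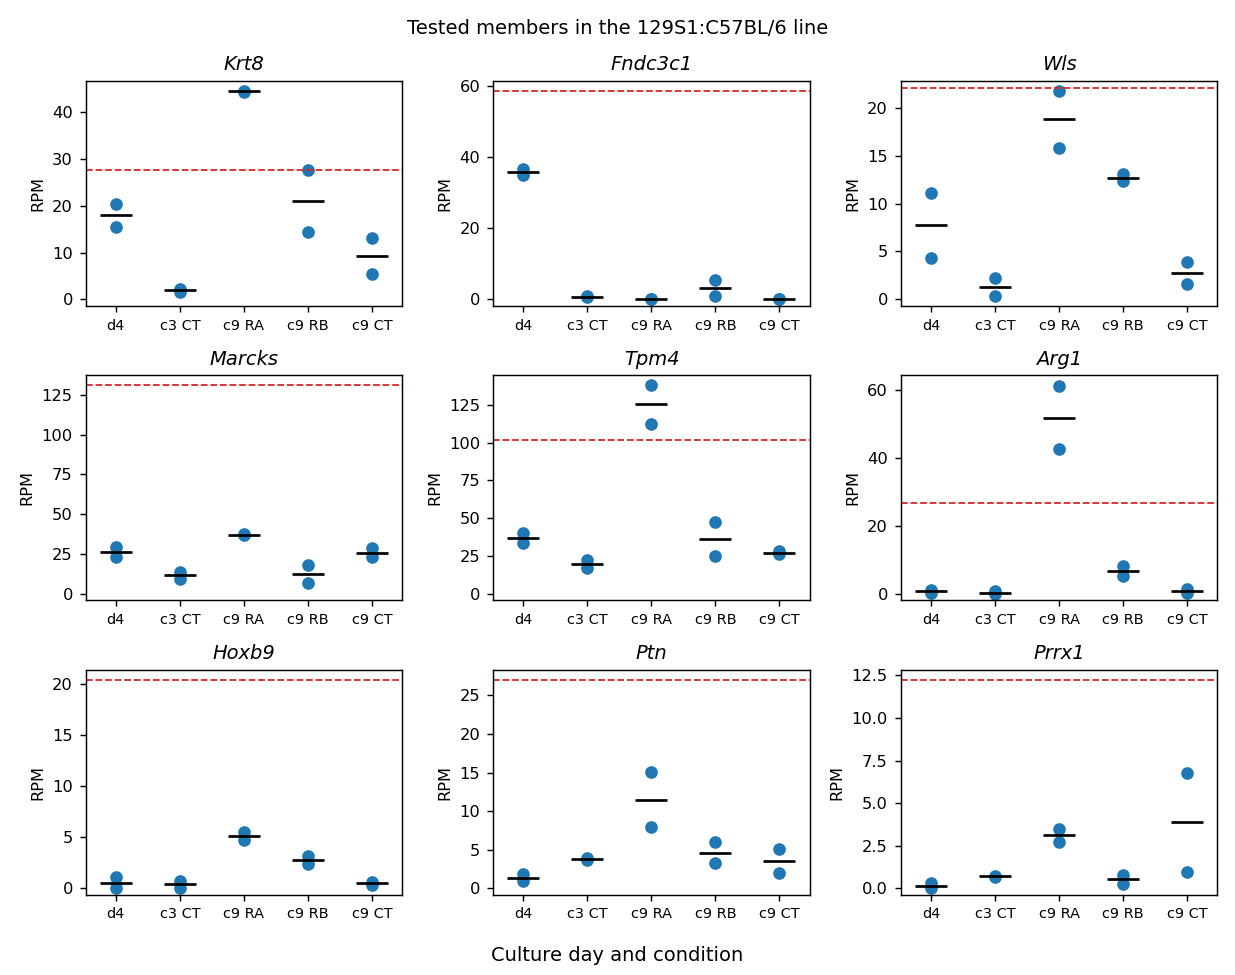
RPM of the 9 tested members in the 129S1:C57BL/6 line at d4, c3 and c9 (RA, RB and CT), with 1 point per library, black bars for the means of 2 libraries and a red dashed line for the E9.5 embryo mean. Fndc3c1 and Krt8 are high at d4 and low at c3, and the c9 RA points of Krt8, Arg1 and Tpm4 lie above the E9.5 line.

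Over the 6 further days in CT, Krt8 was the only tested member called, where 1.66 % of all tested genes were higher and 0.59 % lower. It was at 5.46 and 13.1 RPM at c9, against 1.64 and 2.21 RPM at c3 (log2 fold change 1.71, SE 0.40, limma adjusted p = 0.017). The call was lost without c9 replicate 2 (1.15, limma adjusted p = 0.25), without c3 replicate 1 (1.57, limma adjusted p = 0.143) and without c3 replicate 2 (1.85, limma adjusted p = 0.056), in a range of 0.00951 to 0.25. Marcks was at 22.8 and 28.8 RPM at c9, against 9.54 and 13.6 RPM at c3 (1.10, SE 0.32, limma adjusted p = 0.0533), and was called when the replicate number was added as a block (limma adjusted p = 0.0307). Fndc3c1 was at 0 in both c9 CT libraries, against 0.66 and 0.92 RPM at c3.

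At c9 under RA, 6 of the 9 tested members were higher than under CT and 0 were lower, where 13.3 % of all tested genes were higher; the median log2 fold change was 2.05 over the 9 and 0.20 over all. Over all genes 1578 were higher and 356 lower, against 1052 and 670 with libraries centred on their medians, where the same count of 6 members was higher, and 861 and 815 with quantile normalization, where 4 were; Hoxb9 (limma adjusted p = 0.0522) and Ptn (limma adjusted p = 0.0951) were then not called. Arg1 was at 42.5 and 61.3 RPM in RA, against 0.32 and 1.29 RPM in CT (4.90, SE 0.55, limma adjusted p = 6.96e-07). Tpm4 was at 112 and 138 RPM in RA, against 26.0 and 28.0 RPM in CT (2.17, SE 0.26, limma adjusted p = 2e-06). Krt8 was at 44.6 and 44.4 RPM in RA, against 5.46 and 13.1 RPM in CT (2.25, SE 0.40, limma adjusted p = 0.000197). In RA these 3 genes were above both of their E9.5 embryo libraries. Wls was at 21.7 and 15.9 RPM in RA, against 3.86 and 1.62 RPM in CT (2.46, SE 0.52, limma adjusted p = 0.00116). Hoxb9, the gene of posterior position, was at 4.73 and 5.47 RPM in RA, against 0.64 and 0.32 RPM in CT (2.05, SE 0.50, limma adjusted p = 0.00384). These 5 calls held when any 1 library was left out where the gene could be tested. Arg1 reached 5 RPM only in RA and RB libraries, and Hoxb9 only in c9 RA replicate 2 (5.47 RPM) and c7 RB replicate 2 (5.12 RPM). Wls reached 5 RPM in d4 replicate 1 (11.1 RPM) and otherwise only in RA and RB libraries. Arg1, Hoxb9 and Wls thus needed treated groups where they were high to pass the filter, which favoured their higher calls. These calls were kept with no filter.

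Ptn was the sixth, at 7.88 and 15.0 RPM in RA, against 5.14 and 1.94 RPM in CT (log2 fold change 1.49, SE 0.44, limma adjusted p = 0.0134). Its call was lost without RA replicate 2 (1.06, limma adjusted p = 0.182) and without CT replicate 2 (0.96, limma adjusted p = 0.212), in a range of 0.00794 to 0.212. Marker lists, which hold some of these members, differed too: 8 of 14 tested mesenchyme genes were higher in RA, Ptn among them, and 1 was lower. The 24 that are no members summed to 320 to 447 RPM in RA, against 81.8 to 181 RPM in CT. Of 14 tested gut endoderm genes 9 were higher in RA, Krt8 among them, and 0 lower, with Krt18 at 110 and 87.2 RPM in RA, against 19.0 and 12.9 RPM in CT. Of 19 tested early PGC genes 0 were higher and 10 were lower. The part of other cell types in the RA values of the members was not tested.

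Under RB, which shares its CT libraries with the comparison above, 5 of the 9 tested members were higher than under CT and 1 was lower, where 24.6 % of all tested genes were higher and 12.1 % lower; the median log2 fold change was 1.14 over the 9 and 0.19 over all. The balance depended on the scaling: with libraries centred on their medians 3 members were higher and 2 lower, beside 2137 and 2266 of all genes, and with quantile normalization 2 were higher and 2 lower, beside 2103 and 2378. Krt8 and Hoxb9 were not called under either scaling (limma adjusted p = 0.0845 for both when centred), nor was Fndc3c1 under quantile normalization (limma adjusted p = 0.0541), while Prrx1 was called lower under both. Arg1 was at 5.16 and 8.32 RPM in RB, against 0.32 and 1.29 RPM in CT (2.12, SE 0.55, limma adjusted p = 0.00228), the only call of the 6 that held without each library in turn. Wls was at 13.1 and 12.3 RPM in RB, against 3.86 and 1.62 RPM in CT (1.94, SE 0.52, limma adjusted p = 0.00291), and was lost without CT replicate 2 (1.498, limma adjusted p = 0.0554, range 0.00354 to 0.0554). Fndc3c1 was at 5.56 and 0.80 RPM in RB, against 0 in both CT libraries (1.78, SE 0.53, limma adjusted p = 0.00674), and rested on RB replicate 1, without which the change was 0.85 (limma adjusted p = 0.264, range 0.00102 to 0.264). Hoxb9 was at 3.18 and 2.41 RPM in RB (1.36, limma adjusted p = 0.0245) and was lost without RB replicate 1 (1.21), RB replicate 2 (1.502) or CT replicate 2 (1.20), with limma adjusted p from 0.0495 to 0.129.

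Krt8 was at 27.6 and 14.49 RPM in RB, against 5.46 and 13.1 RPM in CT (log2 fold change 1.14, SE 0.40, limma adjusted p = 0.0179), and was lost without RB replicate 1 (0.70) and without CT replicate 1 (0.58), with limma adjusted p from 0.00376 to 0.304. Marcks was lower, at 17.9 and 6.71 RPM in RB, against 22.8 and 28.8 RPM in CT (-1.14, SE 0.32, limma adjusted p = 0.00384), and was lost without RB replicate 2 (-0.50) and without CT replicate 2 (-0.98), with limma adjusted p from 7.35e-05 to 0.205. Prrx1 was at 0.79 and 0.27 RPM in RB, against 6.75 and 0.97 RPM in CT, and was not called (-1.37, SE 0.60, limma adjusted p = 0.0555). It was called without CT replicate 2 (-2.36, limma adjusted p = 0.00535, range 0.00535 to 0.659). In RB, 1 of 14 tested mesenchyme genes was higher and 4 were lower than in CT. Of 14 tested gut endoderm genes 6 were higher, among them Krt8 and Krt18, and 3 were lower, and of 19 tested early PGC genes 0 were higher and 19 were lower. The part of these lists in the RB values of the members was not tested. Arg1 and Hoxb9 passed the filter only through RA and RB libraries, and Wls needed these libraries too, as stated above. This favoured the higher calls of these genes in RB as well.

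Set directly against RA at c9, RB had 5 of the 9 tested members lower and 1 higher, where 11.7 % of all tested genes were lower and 13.1 % higher (24.8 % in either direction); the median log2 fold change was -1.14 over the 9 and -0.05 over all. Arg1 (-2.78, SE 0.55, limma adjusted p = 0.000286), Tpm4 (-1.82, SE 0.26, limma adjusted p = 7.02e-06) and Marcks (-1.66, SE 0.32, limma adjusted p = 0.000193) held without any 1 library. Tpm4 was at 47.3 and 25.2 RPM in RB, against 112 and 138 RPM in RA. Ptn (-1.14, limma adjusted p = 0.0392) was lost without RB replicate 2 (-0.78) and without RA replicate 2 (-0.71), with limma adjusted p from 0.0268 to 0.318. Krt8 (-1.11, limma adjusted p = 0.0273) was lost without RB replicate 2 (-0.67), RA replicate 1 (-1.11) or RA replicate 2 (-1.12), with limma adjusted p from 0.0133 to 0.305. Fndc3c1 was the member that was higher in RB (1.78, limma adjusted p = 0.00945), again lost without RB replicate 1 (0.85, limma adjusted p = 0.3, range 0.00193 to 0.3). Of 14 tested mesenchyme genes 0 were higher and 9 were lower in RB than in RA, Ptn among the lower.

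Day 7 values are given for the 3 members that passed their E9.5 level in RA at c9. Arg1 was at 16.4 and 14.2 RPM in RA, 12.3 and 14.1 RPM in RB and 0.98 and 2.16 RPM in CT, so RA lay just above RB and both lay above CT. Krt8 was at 7.73 and 9.45 RPM in RA, 12.4 and 8.96 RPM in RB and 5.88 and 9.28 RPM in CT, and all 3 conditions overlapped. Tpm4 was at 56.9 and 72.9 RPM in RA, 43.8 and 41.3 RPM in RB and 29.0 and 35.2 RPM in CT, in an order without overlap. The day 7 values are given without a test.

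The single 0R3B library at c9 had Tpm4 at 39.1 RPM, Marcks at 16.7 RPM, Wls at 16.001 RPM, Arg1 at 10.0 RPM, Hoxb9 at 5.95 RPM and Krt8 at 5.58 RPM. In the C57BL/6 line the day 9 RB library (c7RB) had Arg1 at 24.9 RPM, against 2.48 RPM in the day 9 CT library (c7CT). Krt8 was at 3.62 RPM in c7RB, against 10.55 RPM in c7CT. Wls was at 1.93 RPM in this RB library, against 5.58 RPM in CT, and Tpm4 at 52.3 RPM, against 83.7 RPM. These single libraries have no replicate check, and the time under the factors in c7RB may differ from that in c9 RB.

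Stra8 is the retinoic acid-induced gene needed for germ cells to enter meiosis, and the Stra8-/- experiment asks what differs in its absence. At c3, the day from which the factors were given, 0 of the 9 members tested (the set above with Fam181b in place of Fndc3c1) were called between Stra8-/- and wild type by limma, 1 of them had an unadjusted p below 0.05, and 0.00819 % of all 12206 tested genes were called. Krt8 was at 0.77, 0.32, 0 and 1.76 RPM in Stra8-/- PGCLCs, against 1.47 and 0.47 RPM in wild-type PGCLCs (log2 fold change -0.26, limma adjusted p = 1). Arg1 was at 0.38, 1.28, 0.33 and 1.18 RPM in Stra8-/-, against 0.77 and 0.94 RPM in wild type (-0.09). Marcks was the 1 with an unadjusted p below 0.05, at 12.2, 10.2, 11.4 and 12.9 RPM in Stra8-/-, against 6.91 and 7.06 RPM in wild type (0.66, SE 0.30, limma adjusted p = 1).

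At c9 in RB, 3 of the 9 tested members were higher in Stra8-/- than in wild type and 0 were lower, where 10.8 % of all tested genes were higher and 8.35 % lower; the median log2 fold change was 0.53 over the 9 and 0.09 over all. Krt8 was at 34.7, 30.1, 27.8 and 23.2 RPM in Stra8-/-, against 0.84 and 0.47 RPM in wild type (4.17, SE 0.43, limma adjusted p = 3.57e-09). Marcks was at 18.5, 32.1, 20.1 and 22.4 RPM in Stra8-/-, against 5.04 and 4.68 RPM in wild type (2.02, SE 0.30, limma adjusted p = 1.93e-06). Arg1 was at 26.9, 24.2, 35.4 and 23.95 RPM in Stra8-/-, against 8.39 and 5.15 RPM in wild type (1.90, SE 0.40, limma adjusted p = 0.000337). Krt8 reached 5 RPM only in the 4 Stra8-/- libraries at c9 and in 1 at c7, never in wild type, so it entered the fit through the group where it was high; with no filter its limma adjusted p at c9 was 2.45e-07. The groups did not overlap for any of the 3, and these calls held without each library in turn and with the SK1 pair averaged to 1. Tpm4 was at 60.4, 51.4, 47.1 and 48.7 RPM in Stra8-/-, against 29.4 and 42.8 RPM in wild type, and was not called (0.53, limma adjusted p = 0.0612). Hoxb9 was at 6.81, 13.1, 9.09 and 10.8 RPM in Stra8-/-, against 7.55 and 3.28 RPM in wild type, and was not called (0.82, limma adjusted p = 0.198).

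The difference at c9 was larger than that at c3 for the same 3 genes, by the test of the difference itself, in which 8.66 % of all tested genes were called higher and 6.2 % lower. Centred on the medians, 846 genes were higher and 946 lower, and the same count of 3 members was higher. The change from c3 to c9 in Stra8-/- less that in wild type was 4.43 for Krt8 (SE 0.61, limma adjusted p = 2.72e-06), 1.99 for Arg1 (SE 0.57, limma adjusted p = 0.0108) and 1.36 for Marcks (SE 0.42, limma adjusted p = 0.0177). Krt8 held without each library. Arg1 was lost without wild-type replicate 2 (1.62, limma adjusted p = 0.138, range 0.0129 to 0.138). Marcks was lost without wild-type replicate 1 (1.41), wild-type replicate 2 (1.30) or the SK2 library (1.14), with limma adjusted p from 0.024 to 0.109.

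The days between are given for the same 3 genes. At c5, Krt8 was at 0, 0.19, 0 and 0 RPM in Stra8-/-, against 0.24 and 0.68 RPM in wild type. At c7, Krt8 was at 6.48, 3.40, 3.59 and 1.403 RPM in Stra8-/-, against 1.45 and 1.46 RPM in wild type, and the groups still overlapped. Arg1 at c7 was at 27.8, 26.0, 16.6 and 20.0 RPM in Stra8-/-, against 15.9 and 6.32 RPM in wild type, without overlap. Marcks at c7 was at 24.995, 19.6, 18.4 and 18.6 RPM in Stra8-/-, against 5.07 and 8.26 RPM in wild type. The c5 and c7 values are given without a test.

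**Figure D4:**
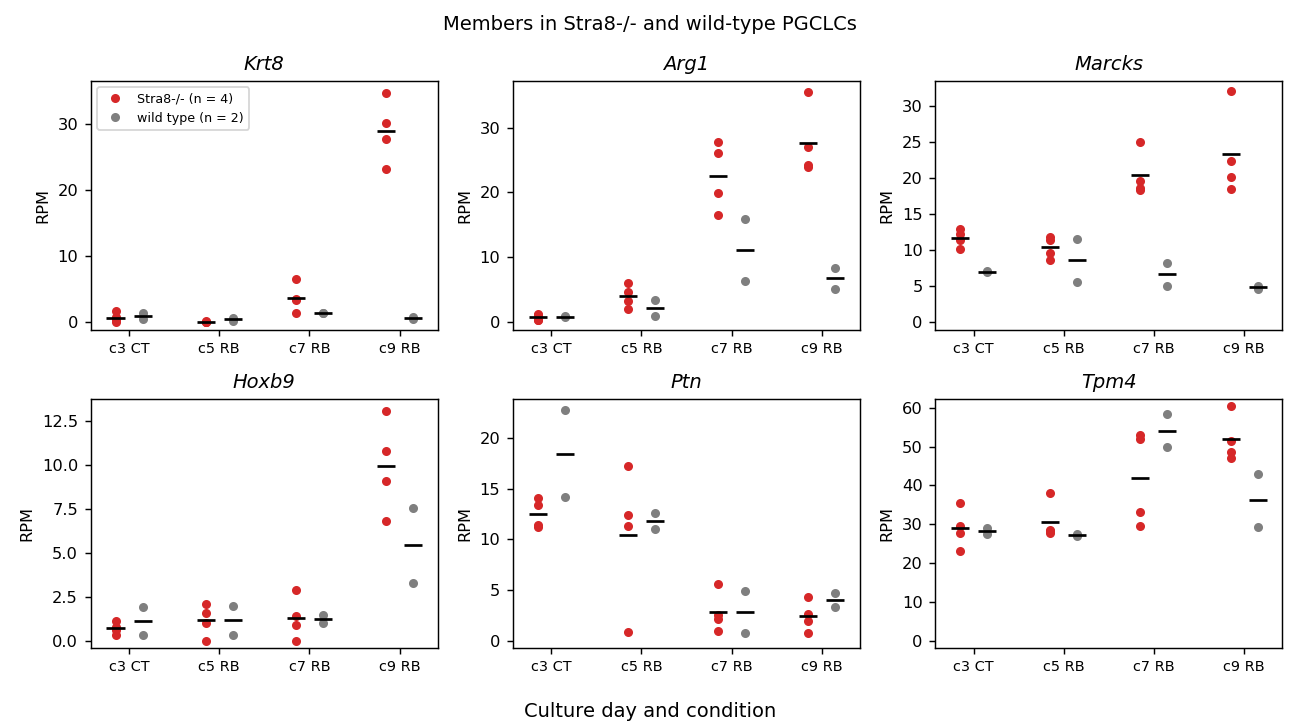
RPM of 6 members in Stra8-/- (red, 4 libraries, left of each pair) and wild-type (grey, 2 libraries, right) PGCLCs at c3 in CT and at c5, c7 and c9 in RB, with 1 point per library and black bars for the means. At c9 the Stra8-/- points of Krt8 lie between 23.2 and 34.7 RPM and the wild-type points under 1 RPM.

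Within each genotype the step from c3 in CT to c9 in RB changed both the day and the condition. In Stra8-/- 4 of the 9 tested members were higher at c9 and 2 were lower, where 25.6 % of all tested genes were higher and 8.34 % lower; the median log2 fold change was 0.91 over the 9 and 0.27 over all. Centred on the medians, 2276 of all genes were higher and 1788 lower, and with quantile normalization 1925 and 1917; the members were 4 higher and 2 lower under both. Of 14 tested gut endoderm genes 9 were higher, Krt8 among them, and 1 was lower, and of 7 yolk sac endoderm genes 6 were higher and 0 lower. Of 15 mesenchyme genes 7 were higher and 7 lower, with Ptn, Prrx1 and Col3a1 among the lower. Of 19 early PGC genes 0 were higher and 15 lower. The part of these lists in the members' values was not tested. Krt8 (4.22, SE 0.35, limma adjusted p = 5.41e-12), Arg1 (4.03, SE 0.33, limma adjusted p = 3.77e-12), Hoxb9 (2.68, SE 0.41, limma adjusted p = 1.13e-06) and Fam181b (2.15, SE 0.40, limma adjusted p = 2.87e-05) were higher. Krt8 and Arg1 were under 5 RPM in all c3 libraries, so both passed the filter through RB libraries, and both calls were kept with no filter. Hoxb9 likewise needed RB libraries to pass the filter, which favoured its higher call, and this call was also kept with no filter. Fam181b was at 5.52, 1.31, 5.26 and 3.09 RPM at c9, against 0 in all 4 c3 libraries. It passed the filter only through the 2 SK1 libraries at c9 and could not be tested without either of them, so its higher level there was favoured by the filter, and with no filter its limma adjusted p was 9.37e-05. Ptn (-2.09, SE 0.49, limma adjusted p = 0.000401) and Prrx1 (-1.78, SE 0.48, limma adjusted p = 0.00195) were lower. All 6 held without each Stra8-/- library in turn where they could be tested. Tpm4 (0.83, limma adjusted p = 0.000212) and Marcks (0.91, limma adjusted p = 0.00156) missed the size limit.

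In wild type 3 of the 9 tested members were higher at c9 and 2 were lower than at c3, where 27.8 % of all tested genes were higher and 15.9 % lower (43.7 % in either direction); the median log2 fold change was 0.32 over the 9 and 0.23 over all. With quantile normalization 1 member was higher (Arg1) and 3 were lower (Ptn, Prrx1 and Marcks), and the balance over all genes turned to 2462 higher and 2680 lower; centred on the medians it was 2738 and 2606, with 3 members higher and 2 lower. Hoxb9 (limma adjusted p = 0.183) and Fam181b (limma adjusted p = 0.111) were not called under quantile normalization. Arg1 was at 8.39 and 5.15 RPM at c9, against 0.77 and 0.94 RPM at c3 (2.04, SE 0.46, limma adjusted p = 0.000354), and held without each wild-type library. Hoxb9 (1.63, limma adjusted p = 0.0155) was lost without wild-type replicate 1 (0.57, limma adjusted p = 0.587, range 0.00807 to 0.587), and Fam181b (1.76, limma adjusted p = 0.00876) without wild-type replicate 2 (1.42, limma adjusted p = 0.154, range 0.0336 to 0.154). Ptn was at 3.36 and 4.68 RPM at c9, against 22.7 and 14.1 RPM at c3 (-1.93, limma adjusted p = 0.0161), and was lost without wild-type replicate 1 (-1.41, limma adjusted p = 0.249, range 0.0484 to 0.249). Prrx1 (-1.83, limma adjusted p = 0.0213) was lost without wild-type replicate 2 (-0.57, limma adjusted p = 0.609, range 0.00343 to 0.609). Arg1 and Hoxb9 needed RB libraries to pass the filter, as stated above, which favoured their higher calls in wild type too. Both calls were kept with no filter. Krt8 (-0.21, limma adjusted p = 0.727) and Marcks (-0.45, limma adjusted p = 0.261) were not called. Of 19 tested early PGC genes 0 were higher and 19 were lower, and of 14 gut endoderm genes 3 were higher and 3 lower. Of 15 mesenchyme genes 3 were higher and 6 lower, with Ptn and Prrx1 among the lower. The part of these lists in the members' values was not tested.

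Marker lists at c9 differed between the genotypes too. Of 14 tested gut endoderm genes 7 were higher in Stra8-/-, Krt8 among them, and 0 were lower. The 23 genes of the list that are no members summed to 629 to 693 RPM in Stra8-/-, against 405 to 412 RPM in wild type. Krt18 was at 99.0, 131, 82.8 and 74.9 RPM in Stra8-/-, against 9.23 and 7.02 RPM in wild type. Of 7 tested yolk sac endoderm genes 4 were higher in Stra8-/- and 0 were lower, with Afp at 7.46, 9.16, 5.74 and 0.77 RPM in Stra8-/-, against 0 and 1.405 RPM in wild type. Of 15 tested mesenchyme genes 5 were higher and 1 was lower, and of 19 tested early PGC genes 15 were higher and 0 were lower. The embryonic globins were at 0 in all 24 libraries of this experiment. The part of other cell types in the Krt8, Marcks and Arg1 values was not tested.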

How the data were processed

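Values are the authors' deposited RPM, a signal scaled to the reads assigned to genes, for 26218 genes and 96 spike-in transcripts. The submitters' processing notes name cutadapt 1.11, TopHat 1.4.1, Bowtie 1.0.1, Cufflinks 2.2.0 and the mouse build mm10. RPM values carry no counts, so no count test was run; 2777 values under 0.001 RPM were set to 0. The 16 members, the 10 marker lists and the tests were chosen with earlier results of these data known. The 22 libraries of the 129S1:C57BL/6 line and the 24 of the DBA/2:C57BL/6 experiment were fitted separately, all groups together, with limma 3.58.1 in R 4.3.3 (linear model, moderated with a trend; 11 and 16 residual degrees of freedom; p-values adjusted over all 11873 and 12206 genes tested) on log2(RPM + 1), a scale that understates changes of low genes. The scripts were tested on simulated data. Genes named are the members, called members of each comparison, the genes next to the threshold and up to 4 genes per list by E9.5 level. Replicate numbers of the 129S1:C57BL/6 line were not used as pairs in the main fit (correlation of deviations -0.072 to 0.239). Whether they pair the libraries is not settled. With them as a block, the genes called for c9 CT against c3 rose from 267 to 399. Knockout lines recur between days. Other pseudocounts, filters, scalings and left-out libraries were run as alternatives.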

Additional observations from a re-analysis of the deposited data

Results flagged for a closer look

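In the Stra8 experiment, the change of Krt8 from c3 to c9 was larger in Stra8-/- than in wild-type PGCLCs by 4.43 on the log2 scale, that of Arg1 by 1.99 and that of Marcks by 1.36, each by the test of the difference itself. Among the 36 sets of 4 Stra8-/- libraries checked (9 tested members on 4 days), 2 held a library far from the other 3. Krt8 at c5 was at 0.194 RPM in 1 Stra8-/- library and at 0 in the others, which is under the level of 3 reads. Tpm4 at c5 was at 38.0 RPM in 1 Stra8-/- library, against 27.8 to 28.4 RPM in the others. Chance flags about 1 in 20 such sets.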

How the results depend on the processing

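Of 40 member calls, 18 held under every alternative run and 0 reversed; 20 of the 50 uncalled member results changed sign under some setting. The replicate block (2 members called for c9 CT against c3) changed no other count of calls by more than 1.5 times. Under a pseudocount of 5, the members called numbered 2 for c3 against d4, 0 for c9 CT against c3, 2 for RB against CT, 3 for RB against RA and 1 for wild-type c9 against c3. Without the filter, and with quantile normalization, c9 CT against c3 had 0. Leaving out single libraries gave 2 to 4 members for c3 against d4, 0 to 1 for c9 CT against c3, 4 to 6 for RA against CT, 3 to 5 for RB against CT, 4 to 5 for RB against RA, 3 to 3 for wild-type c9 against c3 and 1 to 3 for the change between genotypes. The rule took 34 genes at a difference of 1.5, 6 at a difference of 3 and 6 with a pseudocount of 5. For Stra8-/- against wild type at c3, Arg1 changed sign with the SK1 pair averaged (0.026) and ran from -0.224 to 0.036 over left-out libraries, and Krt8 from -0.634 to 0.115. The causes were not tested. Leaving out a whole replicate number of the 129S1:C57BL/6 line left no residual degrees of freedom and was not run; single libraries were left out instead, a choice made after seeing the data. With 1 library left in a group, that library is assumed to vary like the other groups. Depth limits members under about 1 RPM. With no filter the calls of Wls and Marcks for c3 against d4, Krt8 for c9 CT against c3, Ptn and Krt8 for RB against RA, and Ptn and Prrx1 for wild-type c9 against c3 were lost, with limma adjusted p of 0.0559 to 0.0825.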
